A study of Mus musculus with 2 samples.

Results

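The let-7 family of miRNA genes and its close relative miR-98 were measured in whole mouse stomach at embryonic day 15.5 by sequencing of small RNA shorter than 30 nt. The members were the 10 let-7 and miR-98 genes listed in both deposited tables of read counts per miRNA gene, out of 1973 genes listed. They were found by matching Ensembl identifiers to symbols. Replicate 1 pooled the stomachs of 78 embryos and replicate 2 those of 62, males and females together, all of strain B6NCrl, with no treatment or mutation in the labels. Both pools belong to a single group, which leaves comparisons of genes with each other and of one pool with the other, and allows no test between conditions.

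let-7 was found in the worm Caenorhabditis elegans as a regulator of the timing of development, and its family is conserved in vertebrates. In mammals the mature forms accumulate as cells differentiate, while the RNA-binding proteins of the Lin28 family, high in early embryos and stem cells, block the processing of their precursors. Known targets include the messages for Lin28 itself, for the growth-promoting chromatin protein Hmga2 and for Ras proteins. Each gene gives a hairpin, and in let-7 the strand from its 5′ arm (5p) is the main mature miRNA. It selects targets mainly by its seed, bases 2 to 8.

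The mature 5p sequences are shown because they carry both what the family shares and what sets apart the genes that can be counted singly. They come from RefSeq on GRCm38.p6 and are read 5′ to 3′ along the strand of each gene, with the seed in capitals. All 10 members matched an entry in the RefSeq table.
let-7a (Mirlet7a-1, minus strand of chromosome 13, and Mirlet7a-2, plus strand of chromosome 9): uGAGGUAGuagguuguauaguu
let-7b (Mirlet7b, plus strand of chromosome 15): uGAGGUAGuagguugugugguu
let-7c (Mirlet7c-1, plus strand of chromosome 16, and Mirlet7c-2, plus strand of chromosome 15): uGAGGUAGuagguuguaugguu
let-7d (Mirlet7d, minus strand of chromosome 13): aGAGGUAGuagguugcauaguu
let-7f (Mirlet7f-2, plus strand of chromosome X, and the unlisted Mirlet7f-1, minus strand of chromosome 13): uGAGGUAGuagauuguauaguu
let-7g (Mirlet7g, plus strand of chromosome 9): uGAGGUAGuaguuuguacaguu
let-7i (Mirlet7i, minus strand of chromosome 10): uGAGGUAGuaguuugugcuguu
miR-98 (Mir98, plus strand of chromosome X): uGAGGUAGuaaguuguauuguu

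All these sequences were 22 bases long and had the same seed, so no length term was applied to levels. Equal length alone does not make levels comparable, since counts are per gene over both arms and leave out reads matching several places. Counting positions from 1 at the 5′ end of let-7a, let-7c differed from let-7a by A19G and let-7b by A17G and A19G. let-7f differed by G12A, let-7g by G12U and U18C, and miR-98 by G11A and A19U. let-7d differed by U16C and, outside the seed, by U1A at its first base. let-7i differed at 4 positions, G12U, A17G, U18C and A19U.

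Mirlet7a-1, Mirlet7a-2, Mirlet7c-1, Mirlet7c-2 and Mirlet7f-2 share their whole 5p sequence with another gene and are called copied members below. Mirlet7b, Mirlet7d, Mirlet7g, Mirlet7i and Mir98 had no identical 5p sequence elsewhere in the RefSeq table and are called single-copy members.

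Summed over miRNA genes, replicate 1 had 5988677 sense counts and replicate 2 had 6675498, and levels in CPM are sense counts scaled to a common library total by these sums. Reads matching several places were a separate line of the tables, 25.5% of all reads in replicate 1 and 27.0% in replicate 2, and were assigned to no gene. The smooth muscle genes Mir143 and Mir145a held 18.1% of the sense counts, the 5 epithelial miR-200 genes 4.33% and the glandular and endocrine list 2.26%. Nearly all of the smooth muscle share was Mir143, with a mean of 178424 CPM against 2487 CPM for Mir145a. These lists mark cell types found in the gut wall and none of them is specific to stomach. The liver gene Mir122 held 0.160%, the 3 red cell genes 0.0536% and the 3 acinar pancreas genes 0.000479%. In tissue RNA of this kind, fewer cells of a type and less RNA per cell cannot be told apart.

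The family was abundant in both pools and its counts were concentrated in a few single-copy genes. In replicate 1 its 10 genes held 12.9% of sense counts, with a 95% Wilson interval of 12.8 to 12.9. In replicate 2 they held 13.5%, with an interval of 13.5 to 13.6. Mirlet7g and Mirlet7i together made up 78.9% ± 0.0919 of the family's counts (SD, n = 2). The 5 copied members made up 2.61% ± 0.0915 of them. All 10 members had at least 10 summed counts.

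Mirlet7g had 51847 CPM in replicate 1 and 55743 CPM in replicate 2, the third highest mean of all miRNA genes. Mirlet7i, the fifth highest, had 49628 CPM in replicate 1 and 50850 CPM in replicate 2. The ranges of these leading members did not overlap, but they were close: Mirlet7g over Mirlet7i was 1.07 ± 0.0364 (SD, n = 2). Mirlet7d had 12301 CPM in replicate 1 and 13941 CPM in replicate 2. Mir98 had 7959 CPM in replicate 1 and 8111 CPM in replicate 2. Mirlet7b had 3561 CPM in replicate 1 and 3013 CPM in replicate 2, and was the lowest of the single-copy members in both pools.

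Among the copied members, Mirlet7f-2 stood far above the other 4. It had 2608 CPM in replicate 1 and 2826 CPM in replicate 2. Mirlet7a-1 had 170 CPM in replicate 1 and 243 CPM in replicate 2. Mirlet7a-2, with the same mature sequence, had 172 CPM in replicate 1 and 224 CPM in replicate 2. Their order turned round between the pools. Mirlet7c-2 had 159 CPM in replicate 1 and 165 CPM in replicate 2. Mirlet7c-1 had 161 CPM in replicate 1 and 158 CPM in replicate 2, so its order with Mirlet7c-2 also turned round.

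**Figure D1:**
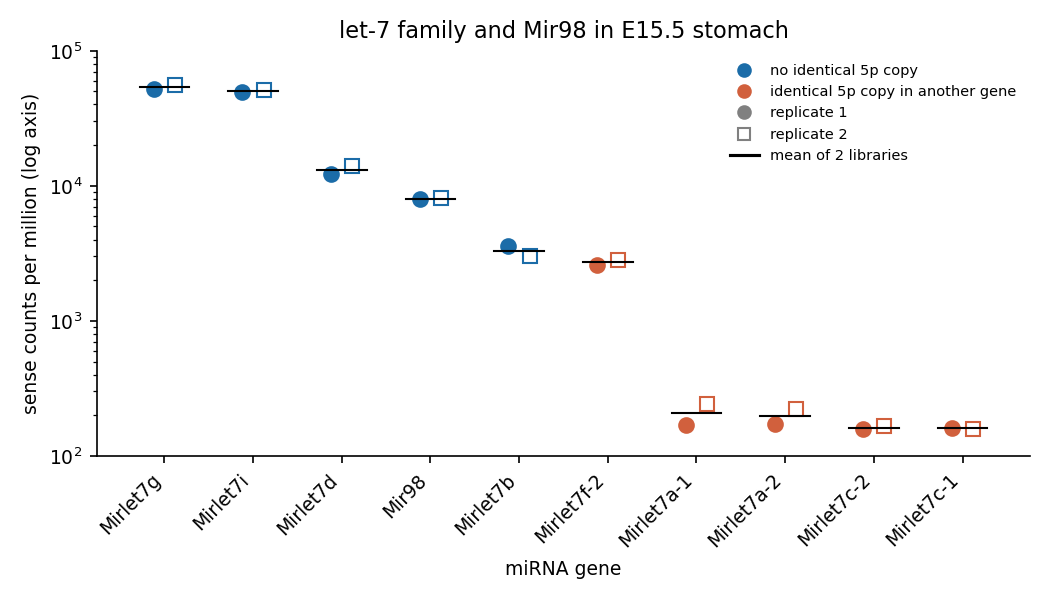
Level in CPM from sense counts (log axis) of the 10 members in replicate 1 (filled circles) and replicate 2 (open squares), with black bars at the mean; blue marks single-copy and orange copied members. The single-copy members lie at mean levels of 3287 to 53795 CPM and the copied members at 160 to 2717 CPM.

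In the order of mean CPM the 10 members make 9 pairs of neighbours. In 7 of these the ranges over the pools did not overlap. The other 2 pairs were the identical copies Mirlet7a-1 with Mirlet7a-2 and Mirlet7c-2 with Mirlet7c-1, which did not differ beyond their spread. The widest step lay between Mirlet7f-2 and Mirlet7a-1, where the means differed 13.1-fold. With 2 pools, ranges that do not overlap are a description only.

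The genes next above and next below each of the 3 highest members, in the order of mean CPM, belonged to other families. Distances are differences of log2(CPM + 1) over 2 libraries of 1 tissue. Mirlet7g lay 0.12 below Mir99a, the miRNA beside Mirlet7c-1 in the genome, and 0.06 above Mir335. Mirlet7i lay 0.04 below Mir335 and 0.40 above Mir10a, which is embedded in a Hox cluster. Mirlet7d lay 0.08 below Mir30e and 0.05 above Mir21a. The pool-to-pool spread of Mir335, 5645 CPM (SD, n = 2), was larger than its distance to either Mirlet7g or Mirlet7i.

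Single-copy members were counted at much higher levels than copied members. The median log2(CPM + 1) was 13.59 over single-copy and 7.42 over copied members in replicate 1, and 13.77 over single-copy and 7.82 over copied members in replicate 2. The difference averaged 6.06 ± 0.15 on that scale (SD, n = 2). The ranges of the sets did not overlap in either pool, but the nearest pair, Mirlet7b and Mirlet7f-2, differed by only 1.21-fold in mean CPM. No test was made, since members are not replicates. The reads assigned to no gene because they matched several places outnumbered the counts of all 5 copied members 150-fold in replicate 1 and 141-fold in replicate 2. How many of those reads were let-7 cannot be told from the tables, and the levels of copied members do not include them.

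Taken over all hairpins in RefSeq, single-copy members at 1 and at 2 mismatches from another gene overlapped in level. With let-7e, whose gene is not listed, the family has 9 distinct 5p sequences, and any 2 of them differed at 1 to 6 positions. For each member the distance was taken to the most similar stretch of the same length in any other hairpin of the RefSeq table. The 5 members with an identical sequence in another gene lay between 160 and 2717 CPM. The 2 members at 1 mismatch lay far apart, with Mirlet7b, 1 base from let-7c, at 3287 CPM and Mirlet7i at 50239 CPM. The gene at 1 mismatch from Mirlet7i was Mir7j, named let-7j in RefSeq, which differs by G8U over its first 22 bases. Within the family itself, Mirlet7i is 2 mismatches from its nearest relative, Mirlet7g. Counted that way, Mirlet7b, the lowest of the single-copy members, is the only one of them at 1 mismatch, so the overlap rests on Mir7j. The 3 members at 2 mismatches, Mirlet7d, Mirlet7g and Mir98, lay between 8035 and 53795 CPM. This is a description of 10 genes of 1 family that share the same libraries. What sets these levels was not tested.

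**Figure D2:**
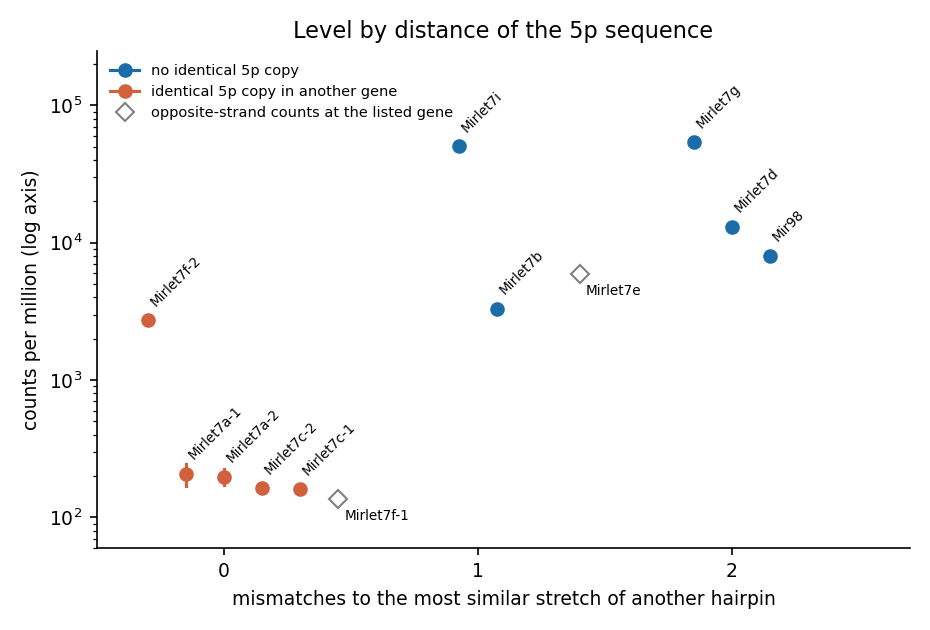
Level in CPM (log axis) of each member, as the mean with a line spanning the 2 pools, by the number of mismatches between its 5p sequence and the most similar stretch of another hairpin; grey diamonds give opposite-strand counts at the listed genes that overlap Mirlet7e and Mirlet7f-1. Members at 0 mismatches lie between 160 and 2717 CPM, Mirlet7b and Mirlet7i at 1 mismatch at 3287 and 50239 CPM, and members at 2 mismatches between 8035 and 53795 CPM.

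The copied members differ from their copies in the bases that flank the mature sequence. These stretches, with 3 bases before and 5 bases after the 22 bases of the mature, are shown because they are where the copies of one mature sequence can be told apart. Capitals mark the first base on each side that differs between the copies, and the sequences are again from RefSeq on GRCm38.p6, on the strand of each gene.
Mirlet7a-1, minus strand of chromosome 13: ggAugagguaguagguuguauaguuuUagg
Mirlet7a-2, plus strand of chromosome 9: ggUugagguaguagguuguauaguuuAgag
Mirlet7c-1, plus strand of chromosome 16: ggUugagguaguagguuguaugguuuAgag
Mirlet7c-2, plus strand of chromosome 15: ggGugagguaguagguuguaugguuuUggg
Mirlet7f-2, plus strand of chromosome X: ggAugagguaguagauuguauaguuUuagg
Mirlet7f-1, minus strand of chromosome 13: gaGugagguaguagauuguauaguuGuggg

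Before the mature, the first base differed in every one of these 3 sets of copies. After it, the first base already differed between Mirlet7f-2 and Mirlet7f-1, while the let-7a copies and the let-7c copies shared 1 further base and differed at base 2. Mirlet7f-2 exceeded Mirlet7a-1 by 13.5-fold ± 2.60 in CPM (SD, n = 2). Mirlet7f-1, whose next base differs just as that of Mirlet7f-2 does, gave 139 CPM in replicate 1 and 132 CPM in replicate 2 as opposite-strand counts at the listed gene Gm24111, which overlaps it. The part of the flanking bases in the level of Mirlet7f-2 was not tested, since the tables give no read lengths.

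The 3′ arms, which give the minor strand, also differ in whether they are shared. Mirlet7a-1 and Mirlet7c-2 have the same 3p mature, so both of their arms are found in another gene. Mirlet7a-2, Mirlet7c-1 and Mirlet7f-2 have a 3p sequence that no other family hairpin holds. The 3p sequences of the 5 single-copy members were likewise found in no other family hairpin. The shared 3p sequence, from the minus strand of chromosome 13 for Mirlet7a-1 and the plus strand of chromosome 15 for Mirlet7c-2, and the sequences of Mirlet7a-2, Mirlet7c-1 and Mirlet7f-2 are given next.
Mirlet7a-1 and Mirlet7c-2: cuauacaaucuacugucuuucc
Mirlet7a-2, plus strand of chromosome 9: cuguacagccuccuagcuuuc
Mirlet7c-1, plus strand of chromosome 16: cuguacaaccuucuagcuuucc
Mirlet7f-2, plus strand of chromosome X: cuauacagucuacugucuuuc

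Having a 3p sequence of its own did not go with a higher level within the let-7a and let-7c copies. Mirlet7a-1, with both arms shared, over Mirlet7a-2 was 1.04 ± 0.0682 (SD, n = 2). Mirlet7c-2, with both arms shared, over Mirlet7c-1 was 1.02 ± 0.0396. Counts are per gene, so reads of the 5p and 3p arms cannot be separated.

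Neighbouring genes that may be cut from one primary transcript were split in the same way. Of the listed genes within 10 kb on the same strand, 5 sets paired a single-copy gene with a copied member, and in 5 of 5 the single-copy gene was higher in both pools. For the pairs within the family this direction was already fixed, because the ranges of the sets did not overlap. These are Mirlet7d with Mirlet7a-1, Mirlet7b with Mirlet7c-2 and Mir98 with Mirlet7f-2. Clusters of other families were not compared. The median span over the 5 sets was 5.16 ± 0.10 in log2(CPM + 1) (SD, n = 2).

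On chromosome 13 Mirlet7d (48536012 to 48536114) and Mirlet7a-1 (48538179 to 48538272) lie on the minus strand in exons of the long non-coding RNA 6720427I07Rik, with 2065 bases between them. Mirlet7d exceeded Mirlet7a-1 by 6.16 in replicate 1 and by 5.83 in replicate 2. On chromosome 15 Mirlet7c-2 (85706603 to 85706697) and Mirlet7b (85707319 to 85707403) lie on the plus strand in exons of the non-coding transcript Lncppara. Mirlet7b exceeded Mirlet7c-2 by 4.33 ± 0.21.

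On chromosome X Mirlet7f-2 (151912346 to 151912428) and Mir98 (151913214 to 151913321) lie on the plus strand in introns of Huwe1, which encodes a ubiquitin ligase. Here the span was the smallest of the 5: Mir98 exceeded Mirlet7f-2 by 1.57 ± 0.06. On chromosome 9 Mirlet7a-2 (41536716 to 41536811, plus strand) lies in introns of the non-coding genes 3110039I08Rik and Gm49317. Its neighbour Mir100, of the miR-99 family, had 6529 CPM in replicate 1 and 7657 CPM in replicate 2, and Mirlet7a-2 over Mir100 was -5.16 ± 0.10. On chromosome 16 Mirlet7c-1 (77599657 to 77599750, plus strand) lies in introns of the non-coding gene Mir99ahg. Its neighbour Mir99a had 56790 CPM in replicate 1 and 60134 CPM in replicate 2, and Mirlet7c-1 over Mir99a was -8.51 ± 0.08, the largest span of the 5.

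**Figure D3:**
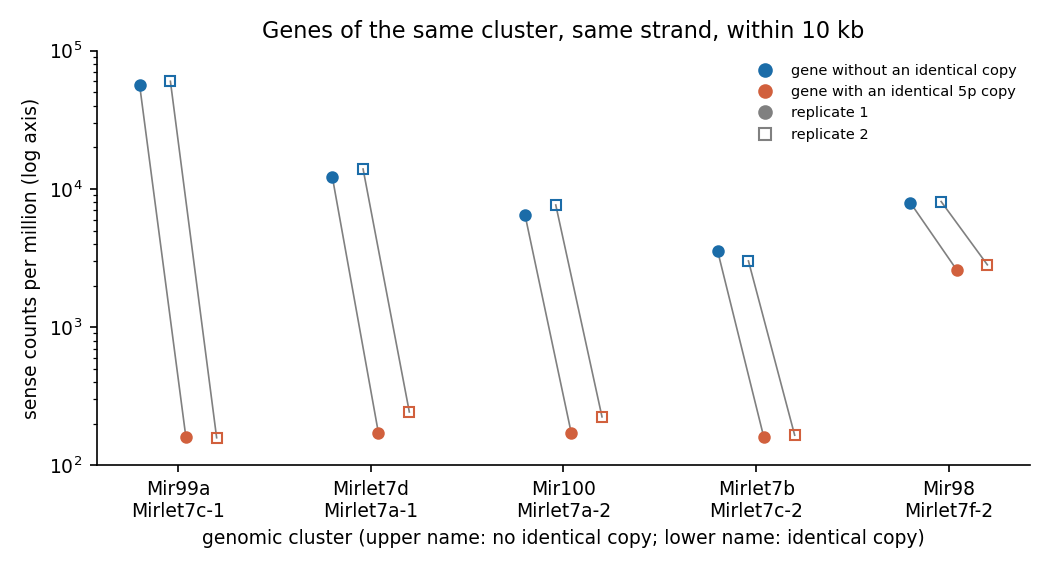
Level in CPM from sense counts (log axis) in 5 genomic clusters; in each, blue marks the gene without an identical copy (upper name), orange the member with an identical 5p copy (lower name), and grey lines join genes of the same pool. In both pools the blue gene is higher in 5 of 5 clusters, by a mean of 1.57 to 8.51 on the log2(CPM + 1) scale. For the pairs within the family this direction was already fixed by the ranges of the sets.

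The 2 highest members had no listed miRNA gene within 10 kb on their strand. Mirlet7g (chromosome 9, 106178840 to 106178927, plus strand) lies in introns of Wdr82, which encodes a WD repeat protein of histone methyltransferase complexes. Mirlet7i (chromosome 10, 122985640 to 122985724, minus strand) lies within D630033A02Rik, annotated as a transcribed pseudogene, in an exon of 1 of its 2 transcripts. All positions are from GENCODE M21 on mm10.

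Across the miRNA genes with a RefSeq mature sequence, the direction of the difference depended on how a shared mature sequence was defined. A mature sequence of either arm was shared with another gene in 90 of the 916 genes that had a RefSeq entry. Mir143, the most abundant gene of both libraries, Mir145a and Mir122 are not among the 916. The median log2(CPM + 1) over both pools was 0.56 in the 826 genes without a shared mature and 2.52 in the 90 with one, a difference of -1.96 ± 0.11 (SD, n = 2). At least 10 counts in both pools were found for 34.7% of genes without a shared mature (95% Wilson interval 31.6 to 38.1) and 55.6% of genes with one (45.3 to 65.4). The difference was -0.11 ± 0.17 over genes with at least 10 summed counts. Where a gene counted as copied only if every mature it gives is shared, the difference turned to 0.64 ± 0.14. The median of the copied genes was then 0 in both pools, so this difference is the median of the other genes alone. Under that definition at least 10 counts in both pools were found for 37.2% of the 879 other genes (34.1 to 40.4) and 27.0% of the 37 copied genes (15.4 to 43.0), and the intervals overlap.

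Among the highest of these 916 genes the order under the first definition was the opposite one. A mean of 1000 CPM or more was reached by 10.5% of genes without a shared mature (95% Wilson interval 8.62 to 12.8) and by 4.44% of genes with one (1.74 to 10.9), so the intervals overlap. The 4 genes with a shared mature at this level, named after their values were seen, were Mirlet7f-2, Mir92-1 at 2542 CPM, Mir16-1 at 1332 CPM and Mir199b at 1023 CPM.

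**Figure D4:**
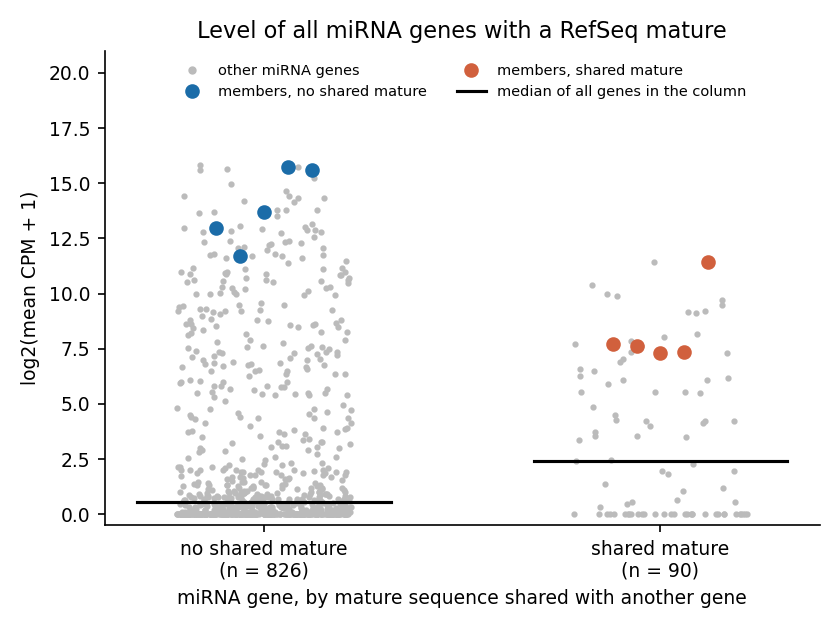
Mean level, as log2(mean CPM + 1), of the 826 miRNA genes without a mature sequence shared with another gene (left) and the 90 with one (right); grey points are single genes, coloured points the members, and black bars the medians. The 5 single-copy members lie near the top of the left column, and Mirlet7f-2 near the top of the right.

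The let-7 seed was also carried by genes that are not members. Mir1961 and Mir7k, whose mature sequences have the same bases 2 to 8, had 0 counts in both pools, which allows up to 0.501 CPM in replicate 1 and 0.449 CPM in replicate 2. Mir7j, which RefSeq names let-7j and which was chosen after its values were seen, departs from the seed by G8U. It had 79.8 CPM in replicate 1 and 83.0 CPM in replicate 2.

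The tables do not list Mirlet7e and Mirlet7f-1, but each overlaps a listed gene of the other strand. At Gm25927 (chromosome 17, 17830343 to 17830459, minus strand), which overlaps Mirlet7e, there were 0 sense counts in both pools, while its opposite-strand counts, scaled by the same sense totals, came to 5938 CPM in replicate 1 and 5813 CPM in replicate 2. At Gm24111 (chromosome 13, 48537825 to 48537921, plus strand), which overlaps Mirlet7f-1, the opposite-strand counts came to 139 CPM in replicate 1 and 132 CPM in replicate 2. That is close to the let-7a and let-7c copies and far under Mirlet7f-2. let-7e differs from let-7a by 1 base, U9G, just after the seed. Its mature, from the plus strand of chromosome 17 in introns of Spaca6, is shown to compare with those above.
let-7e (Mirlet7e): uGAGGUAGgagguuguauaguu

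In CPM, the family total was nearly the same in both pools. Of all 466 miRNA genes with at least 10 summed counts, 5.79% differed at least 2-fold between replicate 1 and replicate 2 in either direction, and 0 of 10 members did. Over 10 genes, 0 is close to that share and is no trait of the family. The family total, as log2 of replicate 1 over replicate 2, was -0.07 (95% exact interval -0.08 to -0.07). Over the members the median log2 ratio was -0.08, with 2 higher in replicate 1 and 8 higher in replicate 2. Over all 466 genes the median was 0.11, with 295 higher in replicate 1 and 171 higher in replicate 2. The members' median thus lay 0.19 below that of all genes.

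Mirlet7a-1 and Mirlet7a-2 differed most between the pools. The ratio of replicate 1 over replicate 2 was -0.51 for Mirlet7a-1 (95% exact interval -0.63 to -0.40; 1021 counts in replicate 1 and 1624 in replicate 2). It was -0.38 for Mirlet7a-2 (-0.49 to -0.26; 1033 counts in replicate 1 and 1497 in replicate 2). The let-7c copies, counted as thinly, stood at 0.03 for Mirlet7c-1 (-0.10 to 0.15) and -0.05 for Mirlet7c-2 (-0.18 to 0.07), with intervals that include 0. These intervals cover counting error only.

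Mirlet7b was the member furthest in the other direction, at 0.24 (0.21 to 0.27). Mirlet7d stood at -0.18, Mirlet7f-2 at -0.12, Mirlet7g at -0.10, Mirlet7i at -0.04 and Mir98 at -0.03. With TMM scaling all ratios moved by -0.16, which put 9 of 10 members higher in replicate 2, and Mirlet7c-1 changed sign to -0.13. In the 12 marker lists 36 genes had at least 10 summed counts. Without TMM scaling, 8 of these differed at least 2-fold between the pools, all 8 of them higher in replicate 1. That count depends on the scaling. The red cell genes Mir144, Mir451a and Mir486 lay above the 2-fold limit by less than the TMM shift. Mir375 and Mir206, higher in replicate 2, fell short of the limit by less than that shift.

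These 8 marked liver, red cells, acinar pancreas, heart and neurons. On the same log2 scale of replicate 1 over replicate 2, Mir122, the 1 liver marker, stood at 1.69 and held 0.244% of sense counts in replicate 1 and 0.0757% in replicate 2. The red cell genes Mir144, Mir451a and Mir486 stood at 1.10, 1.06 and 1.13, and together held 0.0727% in replicate 1 and 0.0345% in replicate 2. Of the neuronal list Mir129-1 stood at 1.91 and Mir129-2 at 1.60, Mir137 at 0.21, and the 3 Mir124a genes were at 0 in both pools. The whole neuronal list held 0.139% in replicate 1 and 0.116% in replicate 2. The thinly counted Mir216a of acinar pancreas stood at 1.13 (11 counts in replicate 1 and 2 in replicate 2). Of the same list, Mir216b stood at -0.36 and Mir217 at 0.43. Mir208a of heart stood at 1.22 (35 counts in replicate 1 and 13 in replicate 2). In the heart and skeletal muscle list, Mir208b stood at 0.31 and Mir499 at 0.67, and Mir206 went the other way.

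Without TMM scaling, the other marker genes differed by less than 2-fold. The stratified epithelium genes Mir203 and Mir205 stood at 0.62 and 0.46, and held 1.72% in replicate 1 and 1.18% in replicate 2. The 5 glandular and endocrine genes held 1.71% in replicate 1 and 2.81% in replicate 2, but most of that difference was Mir375 at -0.85. The other 4 of that list held 0.418% in replicate 1 and 0.486% in replicate 2, and stood between -0.48 and 0.10. Mir206 of skeletal muscle stood at -0.85. The part of these markers in the ratios of the members was not tested.

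**Figure D5:**
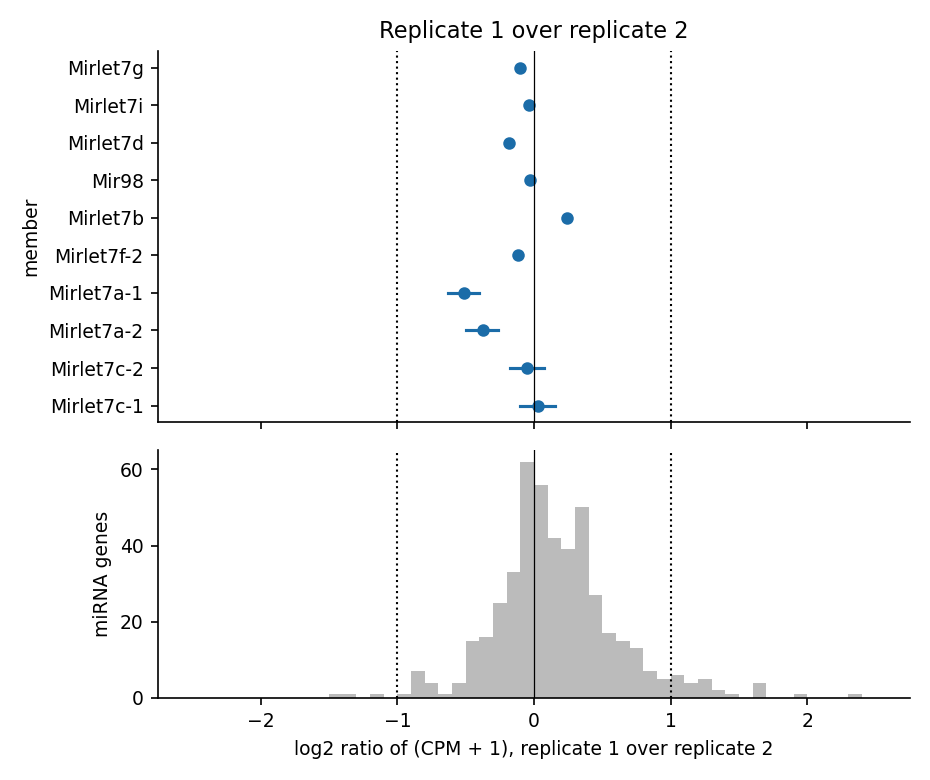
Upper panel, log2 ratio of (CPM + 1) of replicate 1 over replicate 2 for each member, with 95% exact intervals as lines; lower panel, the same ratio for all 466 miRNA genes with at least 10 summed counts, with dotted lines at 2-fold. The members lie between -0.51 and 0.24, inside the dotted lines.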

How the data were processed

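For each library the authors deposited a table of unnormalized read counts per miRNA gene. Assembly (mm10) and gene annotation (GENCODE M4) are stated in the description files deposited with them. How reads were trimmed, aligned and counted is not given in the sources used here. Columns carry no names. In all gene rows the first value is the total of both others, and the second, which holds most counts, was read as the sense strand. Lines that name no gene were left out of totals.

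Symbols and positions came from GENCODE M21 by identifier without version (1894 of 1973 matched), and sequences from RefSeq on GRCm38.p6. A mature sequence was called shared if it equals or lies within a sequence of another gene; distances were mismatches to any stretch of another RefSeq hairpin, without gaps; no genome was searched. CPM are relative to summed sense counts, ratios use 1 CPM added, means and SD cover 2 pools, and ratios past 2-fold were counted among genes with at least 10 summed counts. Wilson and exact Clopper-Pearson 95% intervals and the limit of 3 counts for a count of 0 describe counting error alone, because sequenced reads can derive from the same molecule. With 1 group no test was run, and the spread is between 2 pools only. edgeR 4.0.16 (TMM) and DESeq2 1.42.0 gave alternative scalings. Ratios, intervals and copy detection were tested on simulated data. Named were all members, listed genes within 10 kb on the same strand, genes with the same seed, the genes next in level to the 3 highest members, the listed gene overlapping Mirlet7e and marker genes; Mir7j, Gm24111 and Mirlet7f-1 and the copied genes at 1000 CPM or more fall outside that rule. The members and lists were chosen with earlier results of these data known. Software was R 4.3.3 and Python 3.11.15 with matplotlib 3.10.9, scipy 1.17.1, numpy 2.4.6 and pandas 2.3.3.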

Additional observations from a re-analysis of the deposited data

Results flagged for a closer look

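Signal relevant to the family stood in counts that the comparisons do not use. Over both libraries, opposite-strand counts came to 74365 at Gm25927, which overlaps Mirlet7e, and to 1712 at Gm24111, which overlaps Mirlet7f-1, each above the 3 counts that a count of 0 allows. Reads matching several places numbered 2946663 in replicate 1 and 3406967 in replicate 2. Their assignment to let-7 genes was not tested.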

How the results depend on the processing

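The family share of 13.2% became 6.90% of all reads in the tables, 16.1% without the most abundant gene, and 13.7% with the opposite-strand counts at the gene overlapping Mirlet7e added; adding also those over Mirlet7f-1, chosen after seeing the data, gave 13.7%. Without either replicate it was 12.9 to 13.5%. The difference between single-copy and copied members, 6.06 on the log2 scale, was 5.65 with means in place of medians and 5.99 where at most 1 mismatch defined a copy, which moves Mirlet7b and Mirlet7i to the copied set; without either replicate it was 5.95 to 6.16. Over the 916 miRNA genes with a RefSeq mature sequence the difference of -1.96 was -2.34 with both strands, -2.43 with pseudocount 0.5 and -0.84 with pseudocount 5. It was -0.11 over genes with at least 10 summed counts, and it turned to 0.64, with a copied median of 0, where every mature had to be shared. Without either replicate it was -2.04 to -1.89. The causes of these shifts were not tested. The median span in clusters, 5.16, stayed at 5.13 to 5.16 under the strand and pseudocount alternatives and at 5.09 to 5.23 without either replicate. The median ratio between the pools, -0.08, was -0.23 with TMM and -0.23 with DESeq2 size factors, and 0 of 10 members passed the fold limit under any of the 8 alternatives run. Genes past the fold limit numbered 27 of the 466 tested (5.79%). They numbered 41 (8.80%) with pseudocount 0.5, 13 (2.79%) with pseudocount 5 and 81 (17.4%) with a 1.5-fold limit. With a minimum of 100 summed counts they were 16 of 299 genes (5.35%), nearly the same share. Each member's level scaled by 0.52 with the total of all reads and by 1.22 without the most abundant gene. No paired analysis was possible because there is a single group of samples. Depth limits little here, since the lowest member had 2023 summed counts.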
